A study of Saccharomyces cerevisiae with 57 samples.

Results

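The ribosomal DNA (rDNA) repeat of Saccharomyces cerevisiae was examined in 57 libraries of mapped fragments. It was taken as all 100 bp bins of chrXII:451001-490000 in the sacCer3 build, which are 390 of 120721 nuclear bins and 0.323% of the nuclear genome. In ChEC-seq, micrococcal nuclease (MNase) is fused to a transcription factor (TF) and calcium is added to permeabilized cells, so that DNA near the factor is cut and each fragment end marks a cleavage. The tested groups were cells with Abf1-MNase (genotype ABF1-3FLAG-MNase-kanMX6), Rap1-MNase (RAP1-3FLAG-MNase-kanMX6) and Reb1-MNase (REB1-3FLAG-MNase-kanMX6), each tagged at the C terminus of the chromosomal gene, and their reference was free MNase (ura3::P_REB1-3FLAG-MNase-NLS-URA3), which carries a nuclear localization signal and is expressed from the REB1 promoter. Further libraries came from Abf1 and Reb1 with a shorter linker before MNase, and from Reb1 with MNase at its N terminus (pRS413-P_REB1-MNASE-3FLAG-REB1), which is expressed from a plasmid in cells whose chromosomal REB1 was deleted. The last library was of Abf1 MNase X-ChIP-seq, with crosslinked and immunoprecipitated DNA, and its label gives the Abf1-MNase genotype, although the study's strain list also holds an Abf1 strain tagged without MNase. All strains were in the W1588-4C background, a RAD5+ relative of W303-1A, and in each ChEC-seq factor strain the fusion was the only copy of that factor. Digestion was stopped every 10 s between 10 and 60 s and at 2.5, 5, 10 and 20 min, and 1 library of each series had no calcium. Only Abf1, Rap1 and Reb1 at 30 s had 3 libraries each, and every other condition had 1, so that only the 30 s libraries could be tested. Nothing in the labels says that the 3 libraries came from separate cultures, so p-values measure the spread between these libraries, which may be technical.

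In budding yeast the rDNA is a tandem array on chromosome XII. RNA polymerase I transcribes each unit into the 35S precursor, which is processed into 18S, 5.8S and 25S ribosomal RNA, and RNA polymerase III transcribes the 5S gene in the spacer, on the other strand. The spacer between the 35S 3′ end and 5S (NTS1) holds the terminator, the replication fork barrier and the enhancer, and the spacer between 5S and the 35S promoter (NTS2) holds a replication origin. Reb1 is a Myb-related general regulatory factor known to bind at the 35S terminator. Rap1 binds promoters of ribosomal protein genes and telomeric repeats, and Abf1 is a general regulatory factor that also binds replication origins.

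The reference holds 2 full 35S copies, RDN37-1 at chrXII:451575-458432 and RDN37-2 at chrXII:460712-467569, both on the minus strand, with a unit length of 9137 bp. Between them lie the promoter (taken as 300 bp, chrXII:458433-458732), NTS2 (chrXII:458733-459675), RDN5-1, the 5S gene (chrXII:459676-459796), and NTS1 (chrXII:459797-460711). The region ends in a right flank (chrXII:468932-490000) with further 5S copies, the ASP3 asparaginase genes, the Ty element YLR157C-B and YLR162W. The copies are near identical and copy 1 took 47.2 to 50.8% of the ends of both, so values are given per unit, with the ends of both copies summed. In single 100 bp stretches of identical sequence, however, the share of copy 1 ran from 26.09 to 86.95% over all libraries. Bins of 1 copy, given further below, therefore hold an uneven part of the ends of the unit. More copies per genome and more cleavage per copy cannot be told apart in these data.

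The cleavage of the factors in the unit gathered at most of the matches to their motifs and at 2 places without an exact motif match. The unit was searched on both strands for TTACCCG (Reb1), the Rap1 consensus and the degenerate Abf1 consensus. TTACCCG occurred 4 times per unit and the Rap1 and Abf1 motifs once each. Of all 119509 nuclear windows of 101 bp, 0.624% held a Reb1 match, 0.129% a Rap1 match and 1.26% an Abf1 match, and a match is only a match of letters. The sites are shown because the results turn on them. Each line gives 101 bases of the RefSeq sacCer3 sequence from the minus strand, 5′ to 3′ along 35S. Capitals mark the motif or, where there is no exact match, the most cleaved base. In the order printed they are chrXII:459560-459660, chrXII:458591-458691, chrXII:457326-457426, chrXII:454448-454548, chrXII:452892-452992, chrXII:452286-452386 and chrXII:451624-451724.
NTS2 place cleaved by Rap1: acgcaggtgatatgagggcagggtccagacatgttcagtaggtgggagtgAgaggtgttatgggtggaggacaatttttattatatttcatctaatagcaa
Reb1 motif in the 35S promoter: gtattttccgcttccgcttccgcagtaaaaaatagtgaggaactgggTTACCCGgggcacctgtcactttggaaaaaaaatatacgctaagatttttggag
Reb1 motif in the 18S gene: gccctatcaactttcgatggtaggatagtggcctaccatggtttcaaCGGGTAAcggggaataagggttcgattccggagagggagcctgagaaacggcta
Rap1 motif in the 25S gene: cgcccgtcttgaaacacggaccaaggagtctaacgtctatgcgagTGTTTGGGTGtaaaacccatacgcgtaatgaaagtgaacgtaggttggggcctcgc
Reb1 motif in the 25S gene: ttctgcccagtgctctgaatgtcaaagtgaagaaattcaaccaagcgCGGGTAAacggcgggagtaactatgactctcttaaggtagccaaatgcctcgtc
Abf1 motif in the 25S gene: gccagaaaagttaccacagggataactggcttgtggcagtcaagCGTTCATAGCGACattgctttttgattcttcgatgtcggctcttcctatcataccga
Reb1 motif in the 3′ external spacer (ETS2): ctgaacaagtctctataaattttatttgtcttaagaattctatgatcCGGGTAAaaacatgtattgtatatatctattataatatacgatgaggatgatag

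The motif reads TTACCCG along 35S only in the promoter, and it is reversed in 18S, 25S and ETS2. The ETS2 match lies just past the 25S gene, where transcription of 35S ends. Positions are counted from the first base of 35S, with bases before it negative.

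ChEC-seq libraries held 47680 to 7565000 fragments (median 3752000), and at 30 s the factor libraries held 5464000 to 10160000 nuclear ends. The 95% Wilson interval of the rDNA share was therefore narrow in ChEC-seq libraries, reaching 0.0233 to 0.333 percentage points to either side, which covers counting error only. Mitochondrial ends ranged from 0.0968 to 45.2% of ends, with the highest share in free MNase at 10 s, and were left out of all denominators. Identical fragments were kept, and distinct fragments were 42.7 to 75.9% of those at 30 s. A run code in the library titles changed between 60 s and 2.5 min in the factor series, so that the step between those times and the run cannot be told apart, and the Abf1 and Reb1 libraries without calcium carry the code of the minute libraries. All free MNase libraries share 1 code. Free MNase at 30 s, a lone library, stood apart from the other free MNase libraries up to 60 s. It had the lowest rDNA share of the free MNase series and, at the promoter motif, 0.896 times as many ends per base inside the motif as in the window around it, against 0.188 to 0.534 in the other free MNase libraries without calcium or from 10 to 60 s.

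The rDNA share of cleavage was highest with Reb1, intermediate with Rap1 and lowest with Abf1. At 30 s, Reb1 libraries had 19.1, 29.5 and 29.7% of nuclear ends in the region, Rap1 libraries 14.6, 18.5 and 17.2%, Abf1 libraries 7.14, 11.3 and 8.21% and the free MNase library 7.98%. The means were 26.1% ± 6.07 for Reb1, 16.8% ± 1.98 for Rap1 and 8.88% ± 2.15 for Abf1 (SD, n = 3 each). The 3 groups did not overlap, and the exact permutation test over the 9 libraries gave p = 0.00357, the smallest that its 280 splits can give. The order was the same among libraries of 1 run, where Reb1 had 29.5 and 29.7%, Rap1 14.6% and Abf1 7.14%. In another run Rap1 had 18.5 and 17.2% and Abf1 11.3 and 8.21%, and in the remaining run Reb1 had 19.1% and free MNase 7.98%.

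The share was higher after minutes of digestion than after seconds in all 4 series. Reb1 had 24.5% without calcium, 15.1% at 10 s, 22.9% at 60 s, 33.2% at 2.5 min and 34.5% at 20 min. Rap1 had 9.66% without calcium, 10.8% at 10 s, 18.02% at 60 s, 30.7% at 2.5 min and 21.9% at 20 min. Abf1 had 8.22% without calcium, 5.25% at 10 s, 9.45% at 60 s, 14.0% at 10 min and 12.2% at 20 min. Free MNase had 8.99% without calcium, 13.5, 10.9, 7.98, 13.5, 13.4 and 10.5% from 10 to 60 s, and 23.7, 28.0, 32.4 and 32.1% from 2.5 to 20 min. At 20 min, therefore, untargeted nuclease placed nearly as large a share of ends in the repeat as Reb1 did, while at 30 s every Reb1 library was far above it. When identical fragments were counted once, Reb1 had 16.7% at 10 s and 13.1% at 20 min and free MNase 16.3% and 14.4%. Rap1 had 8.74% and 10.4% and Abf1 4.75% and 6.13%. Between these times the gain was thus not seen with Reb1 or free MNase, whose 10 s libraries held 12.7 and 25.1% distinct fragments. Over all free MNase libraries, however, the range was 8.94 to 16.3% from 10 to 60 s and 14.4 to 17.5% from 2.5 to 20 min. Counted this way, the 30 s means were 15.4% for Reb1, 11.2% for Rap1 and 6.39% for Abf1.

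**Figure D1:**
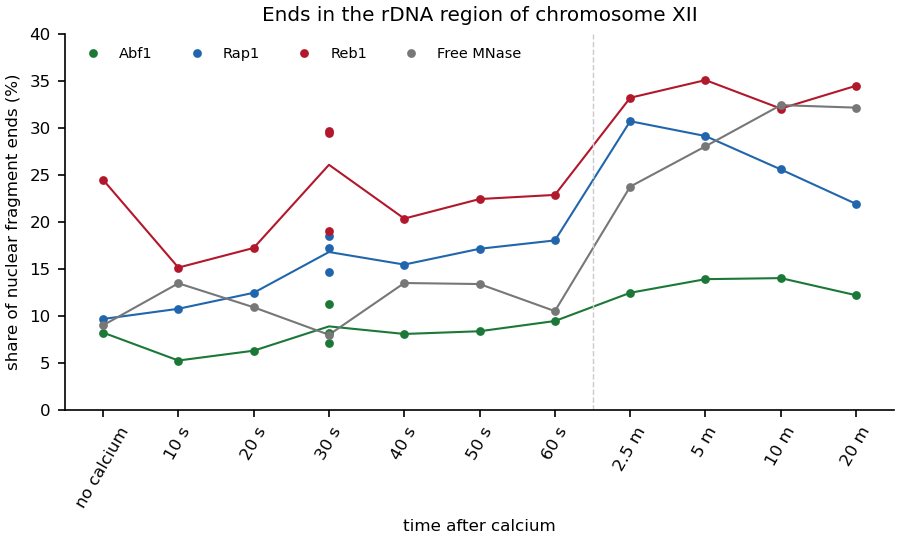
Percent of nuclear fragment ends in the rDNA region (y axis) against digestion time (x axis, in order, not to scale) for Abf1, Rap1, Reb1 and free MNase, 1 point a library, with the dashed line between 60 s and 2.5 min where the run code changes. At 30 s the Reb1 libraries (19.1 to 29.7%) and Rap1 libraries (14.6 to 18.5%) lie above the free MNase library (7.98%), and at 20 min Reb1 (34.5%) and free MNase (32.1%) lie close together.

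Within the unit, ends were spread over the 35S coding part, which took 66 to 73% of rDNA ends in Reb1 libraries, 80.0 to 89.7% in Rap1 libraries, 80.7 to 83.8% in Abf1 libraries and 74.9% in free MNase at 30 s. The elements are therefore given as relative end density, the ends per base of an element divided by those of the 35S coding part of the same library, a quantity that, for elements of the unit, copy number and the rDNA share do not enter, but do enter for the flanks. It orders groups by where in the unit their ends fell. Coding itself held 57570 to 94560 ppm of nuclear ends in Abf1 libraries, 117100 to 166100 ppm in Rap1 libraries, 126200 to 216100 ppm in Reb1 libraries and 59790 ppm in free MNase at 30 s, so the share of nuclear ends is given as well where the order turns on that scale. Per base of the unit, with the ends of both reference copies summed, coding held 74.4 to 511.7 times the nuclear mean over all libraries. The profile of the unit had few strong positions, and they differed between factors. For Reb1 they were −222 in the promoter, with 7416 ± 571 ppm of nuclear ends, and 1066 in 18S, with 7921 ± 2924 ppm (SD, n = 3). Abf1 had 13.3 ppm, Rap1 13.9 ppm and free MNase 11.4 ppm at −222, and Abf1 3.74 ppm, Rap1 5.74 ppm and free MNase 13.4 ppm at 1066. The highest base for Rap1 was 3922 in 25S, with 5528 ± 1503 ppm, and for Abf1 6770 in ETS2, with 841 ± 110 ppm (SD, n = 3 each). No base of the unit exceeded 103 ppm in free MNase at 30 s. These bases were chosen as the highest in the same libraries, so their values are a description.

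**Figure D2:**
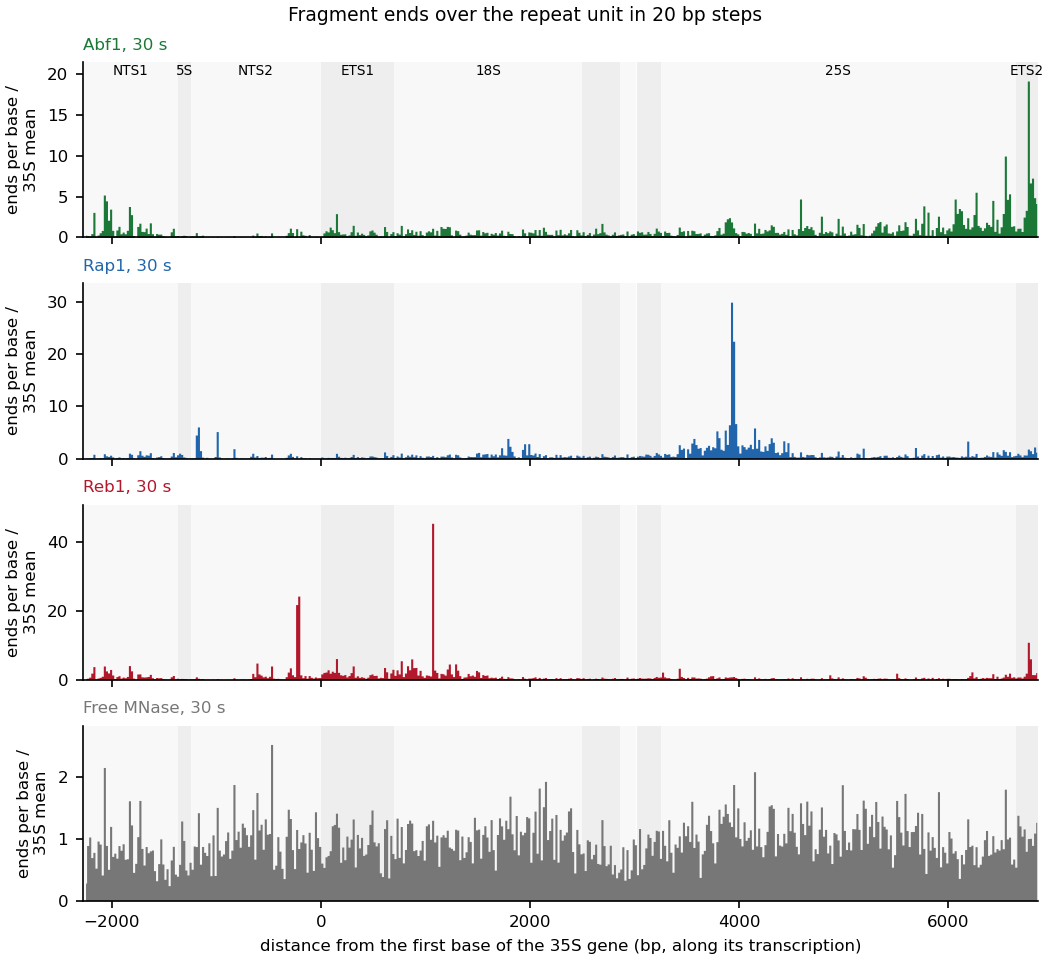
Relative end density in short steps along the rDNA unit at 30 s for Abf1, Rap1, Reb1 and free MNase (y axis, with its own scale in each row). The x axis is the position in bp from the first base of 35S. The highest single bases, in ppm of nuclear ends and not on this axis, were in the promoter (7416 ppm) and 18S (7921 ppm) for Reb1. They were in 25S (5528 ppm) for Rap1 and in ETS2 (841 ppm) for Abf1, and free MNase stayed at or below 103 ppm.

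The 35S promoter was cut far more with Reb1 than with the other factors. Its relative end density at 30 s was 5.39, 3.32 and 3.19 in Reb1 libraries, 0.279, 0.181 and 0.154 in Rap1 libraries, 0.375, 0.308 and 0.336 in Abf1 libraries and 0.922 in free MNase. Every Reb1 library was above free MNase and every Rap1 and Abf1 library below it. The promoter took 15.6, 10.6 and 10.2% of rDNA ends in the 3 Reb1 libraries. The factors differed with adjusted p = 0.00714 (exact permutation test, Benjamini-Hochberg over 6 elements outside coding), and the means were 3.97 ± 1.24 for Reb1, 0.205 ± 0.0658 for Rap1 and 0.340 ± 0.0336 for Abf1 (SD, n = 3 each).

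The promoter signal of Reb1 sat at its motif. In the 101 bp around TTACCCG at chrXII:458638-458644 (minus strand, centre at −209), relative end density was 12.6, 8.50 and 7.92 in Reb1 libraries, with a mean of 9.69 ± 2.57 (SD, n = 3), against 0.918 in free MNase, a ratio of 10.6. Rap1 libraries averaged 0.233 ± 0.0686 and Abf1 libraries 0.466 ± 0.0619 there (SD, n = 3 each), and the factors differed with adjusted p = 0.00429 (exact permutation test over 6 motif windows). This window alone took 12.5, 9.16 and 8.56% of the ends of the unit in Reb1 libraries. Inside the motif, ends per base were 0.00707, 0.00238 and 0.00255 times those of the window in Reb1 libraries, against 0.896 in free MNase. Cleavage by Reb1-MNase thus flanked the motif and nearly spared its bases. When identical fragments were counted once, the Reb1 window values were 3.10, 2.18 and 2.15, still above Abf1 and Rap1, whose libraries lay between 0.40 and 0.67.

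A second Reb1 match, in the 18S gene (chrXII:457373-457379, plus strand, centre at 1057), was cleaved about as strongly. Relative end density was 11.7, 10.0 and 9.24 in Reb1 libraries, with a mean of 10.3 ± 1.24 (SD, n = 3), against 1.17 in free MNase, and Rap1 and Abf1 averaged 0.433 and 0.721. The window took 11.6, 10.8 and 9.98% of the ends of the unit in Reb1 libraries. It lies in sequence that is transcribed by RNA polymerase I, and the adjusted p among the factors was 0.00429 (exact permutation test). Counting identical fragments once gave 2.75, 2.32 and 2.20 in Reb1 libraries. Over the whole 18S gene the relative end density was 1.82, 1.71 and 1.63 in Reb1 libraries and 1.04 in free MNase, and over the 5′ external spacer, ETS1, which precedes 18S, it was 1.76, 1.72 and 1.60 in Reb1 libraries and 0.910 in free MNase.

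The ETS2 match, at the 3′ end of 35S (chrXII:451671-451677, plus strand, centre at 6759), was cleaved with both Reb1 and Abf1, and which was higher depends on the scale. Relative end density was 4.72, 3.96 and 3.62 in Reb1 libraries (mean 4.10 ± 0.561) and 7.99, 5.76 and 7.68 in Abf1 libraries (mean 7.14 ± 1.21; SD, n = 3 each). Rap1 libraries averaged 1.08 ± 0.149 (SD, n = 3) and free MNase had 0.985. The groups did not overlap, with Abf1 highest relative to coding (adjusted p = 0.00429, exact permutation test). As a share of nuclear ends Reb1 was highest, with 8767, 12460 and 11530 ppm in Reb1 libraries, 6776, 8019 and 7689 ppm in Abf1 libraries and 867.5 ppm in free MNase. Of the 5 bases that Abf1 cut most, 451663, 451658 and 451656 on chromosome XII lie beside this match. The others, 451878 (rank 2) and 451868 (rank 5), lie in 25S. Counting identical fragments once gave 3.41, 2.75 and 3.65 in Abf1 libraries and 2.62, 2.43 and 2.30 in Reb1 libraries. Over all of ETS2 relative end density was 5.29, 4.05 and 5.28 in Abf1 libraries, 2.89, 2.48 and 2.35 in Reb1 libraries, 1.30, 1.04 and 0.956 in Rap1 libraries and 1.07 in free MNase.

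The Reb1 match in 25S (chrXII:452939-452945, plus strand, centre at 5491) took a much smaller part of the Reb1 ends. Reb1 libraries had a relative end density of 0.537, 0.565 and 0.708 there, below the 1.09 of free MNase, and Abf1 and Rap1 averaged 0.749 and 0.344 (adjusted p = 0.0107, exact permutation test). As a share of nuclear ends the order turned, with means of 1678 ppm in Reb1, 793.8 ppm in Abf1 and 739.3 ppm in Rap1 libraries and 956.2 ppm in free MNase. The bins of this match in the 25S copies were higher in Reb1 than in the mean of the other factors, by log2 0.99 and 1.02 (limma adjusted p = 0.000699 and 0.000552). These copies have the same sequence, so their bins are not independent. The same 7 letters were thus cleaved with Reb1 far above the coding mean in the promoter and 18S, less in ETS2, and below the coding mean in 25S. Against all 791 matches of TTACCCG in the genome, ranked by the ratio of Reb1 to free MNase ends in 300 bp at 30 s, the promoter was at 13.2 (rank 123), 18S at 13.8 (rank 116), ETS2 at 4.85 (rank 410) and 25S at 1.20 (rank 601), with a median of 5.09.

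The strongest site of Rap1 in coding sequence was its motif match in 25S (chrXII:454494-454503, plus strand, centre at 3935). Relative end density was 13.56, 12.36 and 13.55 in Rap1 libraries, with a mean of 13.2 ± 0.69 (SD, n = 3), against 1.28 in free MNase, and Reb1 and Abf1 averaged 0.669 and 1.24. The window took 16.2, 16.5 and 18% of the ends of the unit with Rap1, the largest share of any of the 6 motif windows in a 30 s library. Counting identical fragments once gave 3.53, 2.86 and 3.01 in Rap1 libraries. The most cleaved bases, 454510 and 454511 on one side and 454484 and 454485 on the other, lie on either side of the motif. Another base of 25S, 4156, lies outside this window and averaged 914.7 ppm with Rap1. It had 126.7 ppm with Abf1, 129.8 ppm with Reb1 and 102.8 ppm with free MNase. The adjusted p was 0.00429 (exact permutation test). In the ranking of Rap1 over free MNase ends in 300 bp it stood at 12.4, rank 168 of 257 matches of this motif, below their median of 16.0.

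Rap1 had a further place of strong cleavage in NTS2, without an exact match to any of the 3 motifs. The printed bases there hold tatgggtg, an incomplete match to the Rap1 motif, and near matches were not searched. The most cleaved base there, −1178 (chrXII:459610), had 2839, 1490 and 1433 ppm in Rap1 libraries and 2.93 ppm in free MNase. Relative end density in the 101 bp around it was 4.17, 1.51 and 1.75 in Rap1 libraries, against 0.882 in free MNase, while Reb1 and Abf1 averaged 0.387 and 0.262. The high Rap1 library came from another run than the other 2. Over all of NTS2 the values were 0.964, 0.391 and 0.417 in Rap1 libraries, 0.729, 0.544 and 0.532 in Reb1 libraries, 0.148, 0.134 and 0.121 in Abf1 libraries and 0.997 in free MNase. The factors differed with adjusted p = 0.0286 (exact permutation test), Rap1 and Reb1 overlapped, and relative to coding every factor library was below free MNase. Among all nuclear ends only the Abf1 share was below it, with 1168, 1747 and 1134 ppm, while Rap1 had 15520, 8931 and 8819 ppm, Reb1 12640, 16020 and 15820 ppm and free MNase 8193 ppm. With the replicate number as a block the adjusted p was 0.0833.

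The 5S gene was cut least with Abf1 (0.183, 0.173 and 0.149), with Reb1 at 0.273, 0.266 and 0.289 and Rap1 at 0.660, 0.297 and 0.358, all below the 0.742 of free MNase. In ppm of nuclear ends Rap1 libraries lay above free MNase (1363, 869.5 and 971.2 ppm against 782.3 ppm) and Reb1 libraries on either side of it (608.6, 1003 and 1103 ppm). The adjusted p among the factors was 0.00714 (exact permutation test), but with fragments under 120 bp only it was 0.325. In NTS1, the terminator and enhancer spacer, relative end density was 1.035, 1.015 and 1.037 in Reb1 libraries, 0.587, 0.291 and 0.280 in Rap1 libraries, 1.08, 0.939 and 0.974 in Abf1 libraries and 0.748 in free MNase. Relative to coding Rap1 was lowest without overlap, and Reb1 and Abf1 lay above free MNase and overlapped (adjusted p = 0.0214, exact permutation test). In ppm of nuclear ends Rap1 (9174, 6442 and 5753 ppm) overlapped Abf1 (8279, 11850 and 8836 ppm), and free MNase had 5964 ppm. That call was lost without Abf1 replicate 2 or replicate 3 (0.0643 each), without any 1 of the Reb1 replicates (0.0571) and with the replicate block (0.0667). No Reb1 motif lay in NTS1 in the search, since the terminator match falls in ETS2 as annotated here.

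**Figure D3:**
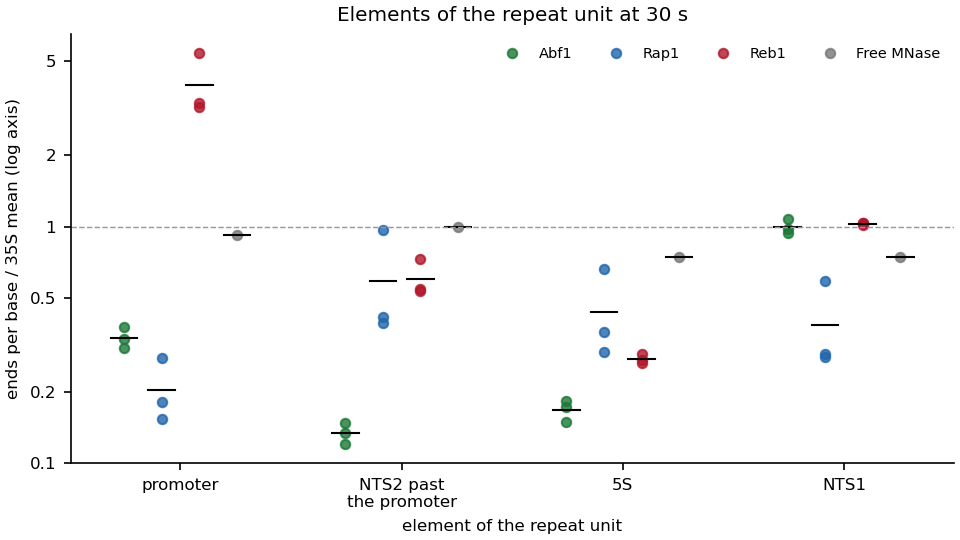
Relative end density (y axis, log scale, ends per base over those of the 35S coding part of the same library) of each rDNA element at 30 s in Abf1, Rap1, Reb1 and free MNase, 1 point a library. At the promoter the Reb1 libraries (3.19 to 5.39) lie above the free MNase library (0.922) and the Abf1 and Rap1 libraries below it.

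Abf1 ends in the unit gathered in the last part of 35S. At its motif in 25S (chrXII:452330-452342, centre at 6097) relative end density was 3.87, 2.55 and 3.22 in Abf1 libraries, with a mean of 3.22 ± 0.661 (SD, n = 3), against 0.641 in free MNase, and Reb1 and Rap1 averaged 0.274 and 0.325 (adjusted p = 0.00429, exact permutation test). The window around a second place near the 25S 3′ end, 6555 (chrXII:451878), which holds no exact match to the 3 motifs, had 5.71, 3.77 and 4.77 in Abf1 libraries and 1.10 in free MNase. Both lie upstream of the ETS2 match described above. In the ranking over 300 bp, the 25S Abf1 match stood at 2.68, rank 1107 of 1784 matches with a value, below their median of 5.195.

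Cleavage with C-terminal Reb1 fell mostly on the 5′ side of its motif, and in the N-terminal Reb1 library at 30 s that share was lower at all 4 matches, which was not tested. The N-terminal library shares its run code with the C-terminal short-linker library, given below, but with no Reb1 library of the usual linker. In the windows of 101 bp, C-terminal Reb1 at 30 s placed 95.8, 95.8 and 95.4% of ends on the 5′ side of TTACCCG in the promoter and 94.3, 92.8 and 92.7% in 18S. With MNase on the N terminus of Reb1 the 5′ shares were 47.5% in the promoter and 33.3% in 18S (1 library), and with free MNase they were 48.3 and 43.7%. The motif points opposite ways along 35S at these 2 sites, so the side favoured by C-terminal Reb1 was the same along the motif and opposite along 35S. In ETS2 the 5′ share with C-terminal Reb1 was 88.3, 83.0 and 82.2%, and in 25S 80.6, 82.9 and 85.6%, against 62.2 and 63.2% with N-terminal Reb1 and 49.3 and 63.8% with free MNase.

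Among the 3 factors the 5′ share differed at every match (exact permutation tests, adjusted over 4 matches), with p = 0.0143 for the promoter and 25S and 0.0214 for 18S and ETS2. The Reb1 means were 95.7% ± 0.257, 83.0% ± 2.47, 93.3% ± 0.905 and 84.5% ± 3.31 in that order (SD, n = 3). Abf1 libraries had 49.8, 54.9 and 53.8% in the promoter but 83.5, 82.1 and 82.9% in ETS2, where they overlapped Reb1. The ETS2 call was lost without Abf1 replicate 2 (adjusted p = 0.0536), without Reb1 replicate 1 (0.0643) and with identical fragments counted once (0.636). Counting them once lowered the Reb1 promoter shares to 81.4, 81.3 and 80.2% and the 18S shares to 69.9, 66.1 and 66.4%, and the calls of promoter, 18S and 25S held. Outside the rDNA, over the matches with enough ends, the median 5′ share was 93.2, 92.9 and 92.4% in C-terminal Reb1 libraries and 49.1% with N-terminal Reb1 at 30 s.

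**Figure D4:**
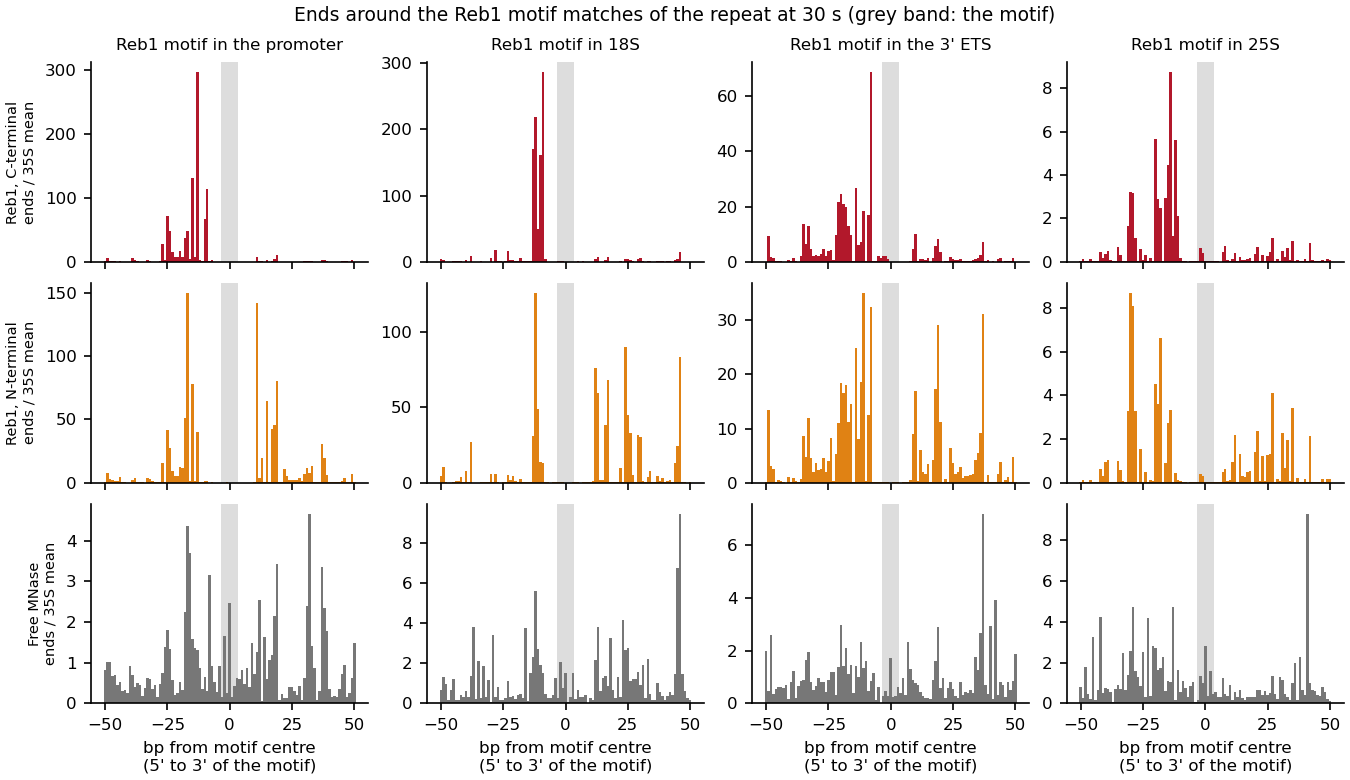
Relative end density by base (y axis) around the 4 Reb1 matches of the unit at 30 s, with rows for C-terminal Reb1, N-terminal Reb1 and free MNase. The x axis is the distance in bp from the motif centre, 5′ to 3′ along TTACCCG, and the grey band is the motif. In the promoter C-terminal Reb1 has 95.4 to 95.8% of ends on the 5′ side, N-terminal Reb1 47.5% and free MNase 48.3%. The N-terminal library is of another run than the C-terminal libraries drawn here.

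In relative end density, the other Reb1 constructs were close to the usual linker at the promoter and 18S and differed more at ETS2. The 5′ share with N-terminal Reb1, given above, was far lower at the promoter and 18S. At 30 s, Reb1 with the short linker had relative end densities of 10.8 in the promoter window and 8.98 in the 18S window and N-terminal Reb1 10.2 and 9.50, against 7.92 to 12.6 and 9.24 to 11.7 in the 3 libraries with the usual linker. With the short linker, 94.2% of promoter ends, 90.7% of 18S ends, 75.3% of ETS2 ends and 70.8% of 25S ends lay 5′ of the motif, all below the range of the 3 libraries with the usual linker. The ETS2 window differed more, with 2.60 for the short linker and 4.94 for N-terminal Reb1, against 3.62 to 4.72. The most cleaved promoter base was −222 with C-terminal Reb1 at every time up to 60 s and with the short linker at 30 s, but −226 with N-terminal Reb1. Abf1 with the short linker had 3.85 in the ETS2 window and 3.17 at the 25S Abf1 match, against 5.76 to 7.99 and 2.55 to 3.87 with the usual linker. The rDNA shares of these libraries at 30 s and 5 min were 29.8 and 28.3% for Reb1 with the short linker, 24.3 and 28.1% for N-terminal Reb1, and 14.9 and 20.4% for Abf1 with the short linker. None of these differences was tested, since each construct had 1 library at a time. The run code of the short-linker and N-terminal Reb1 libraries is carried by no Reb1 library with the usual linker. Construct and run therefore cannot be told apart in comparisons with the usual linker of Reb1.

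Relative to coding, cleavage at the motif windows was present by 10 s of calcium and was lower after minutes. In the promoter window Reb1 had 1.88 without calcium, 10.1 at 10 s, 11.96 at 20 s, 14.2 at 50 s and 12.1 at 60 s, and then 6.72, 5.63, 4.63 and 3.90 from 2.5 to 20 min. In the 18S window it had 2.54 without calcium, 10.7 at 10 s, 11.3 at 60 s and 3.16 at 20 min. The 25S Rap1 window was at its highest at 10 s, with 17.6, and had 9.36 at 60 s and 1.38 at 20 min. The ETS2 window with Abf1 likewise stood at 9.78 at 10 s, 6.56 at 60 s and 1.37 at 20 min, and with Reb1 at 4.81, 3.79 and 1.29. As a share of nuclear ends the Reb1 promoter window had 15490 ppm at 10 s, 29940 ppm at 50 s, 23180 ppm at 2.5 min and 13990 ppm at 20 min, and the whole promoter 20460 ppm at 10 s, 39260 ppm at 2.5 min and 27470 ppm at 20 min, so on that scale the early minutes were above 10 s. The 25S Rap1 window had 23130 ppm at 10 s and 3522 ppm at 20 min. At 20 min, of the windows named here only those of the promoter and 18S in Reb1 were still above 3 times the coding mean.

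**Figure D5:**
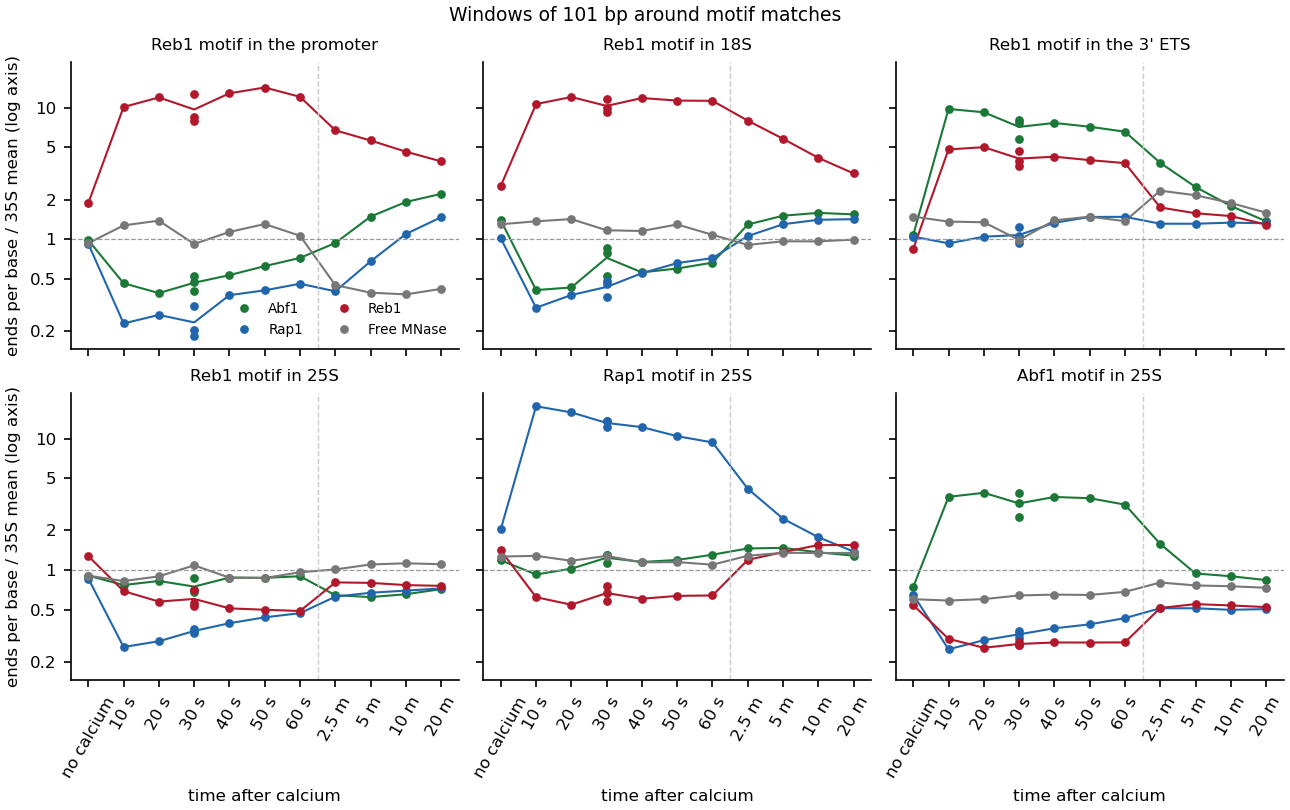
Relative end density (y axis, log scale) in 101 bp windows around the motif matches of the unit against digestion time (x axis, in order, not to scale) for Abf1, Rap1, Reb1 and free MNase, with the dashed line where the run code changes. The Reb1 promoter window stands at 10.1 at 10 s and 3.90 at 20 min, and the Rap1 window of 25S at 17.6 and 1.38.

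At late times the promoter window was higher with Abf1 and Rap1. It window had 0.462 at 10 s, 0.720 at 60 s and 2.21 at 20 min with Abf1, and 0.228 at 10 s, 0.458 at 60 s and 1.47 at 20 min with Rap1. Free MNase had 0.93 to 1.38 up to 60 s and 0.447, 0.391, 0.380 and 0.418 from 2.5 to 20 min, but its share of nuclear ends in the whole promoter, 2410 to 5263 ppm from 10 to 60 s and 3997 to 4664 ppm from 2.5 to 20 min, was not lower. The whole promoter had 2.58 with Reb1, 0.971 with Rap1, 1.48 with Abf1 and 0.370 with free MNase at 20 min. NTS1 reached 1.54 with both Reb1 and Abf1 at 20 min. The most cleaved promoter base moved with time with C-terminal Reb1, being −222 up to 60 s, −218 at 2.5 min and −234 from 5 to 20 min. The 5′ share of the promoter match was 95.4% at 10 s, 85.9% at 5 min and 72.6% at 20 min, and that of 18S 94.3, 76.4 and 61.9%.

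Fragment length in the rDNA did not separate the factors at 30 s. Medians were 241, 275 and 261 bp in Reb1 libraries, 256, 205 and 212 bp in Rap1 libraries, 272, 253 and 235 bp in Abf1 libraries and 215 bp in free MNase, and the groups overlapped (p = 0.189, exact permutation test). In the Reb1 minute series rDNA fragments were short, with medians of 125, 102, 92 and 77 bp from 2.5 to 20 min, against 154, 136, 158 and 143 bp for the other nuclear fragments of the same libraries. With identical fragments counted once the rDNA medians were 153, 141, 152 and 135 bp, close to those of the other fragments, and the Reb1 library without calcium, of the same run, already had 133 bp with all fragments. Of fragments with an end near the promoter motif at 30 s, 40.1, 31.5 and 32.9% extended upstream of 35S with C-terminal Reb1, against 56.3% with N-terminal Reb1 and 54.4% with free MNase.

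Across 100 bp bins, 341 of the 390 held enough ends to be tested (at least 10 ends in 3 libraries). All 137 coding bins, 6 promoter bins and the spacers passed, and the 49 that did not were in the right flank. Coding, promoter, NTS2 and 5S bins come from both reference copies of the same sequence, so their counts are not of independent bins. The fit used all 75803 bins of the nuclear genome that passed, and limma's adjusted p is over all of them. Reb1 against the mean of Abf1 and Rap1 called 119 rDNA bins higher and 76 lower, where 22% of all bins tested were higher and 24.1% lower. All 6 promoter bins were higher, with a median log2 difference of 3.77, as were all 9 NTS1 bins (1.82) and 13 of 19 NTS2 bins. The bin from 458601, which holds the promoter motif, had 11720, 13450 and 12530 ppm in Reb1 libraries, 271.1, 242.9 and 208.4 ppm in Rap1 libraries, 214.1, 263.8 and 231.0 ppm in Abf1 libraries and 391.8 ppm in free MNase, a log2 difference of 5.72 (SE 0.20, limma adjusted p = 4.45e-17). The bin of the 18S motif, from 457301, had 10850, 15580 and 14560 ppm in Reb1 libraries and a log2 difference of 5.24 (SE 0.26).

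Rap1 against the mean of Abf1 and Reb1 called 65 rDNA bins higher and 148 lower, with 14.4% and 40.6% of all bins. All 6 promoter bins were lower (median log2 −1.83) and so were all 6 of the left flank, while in NTS2 11 bins were higher and 4 lower. The largest difference was in the NTS2 copy next to the right flank, in the bin from 468501, with 1791, 804.6 and 904.5 ppm in Rap1 libraries and a log2 difference of 4.18 (SE 0.25), followed by the bin of the 25S Rap1 motif, from 454401 (4.16, SE 0.25). Abf1 against the mean of Rap1 and Reb1 called 113 higher and 131 lower, with 41.9% and 10.2% of all bins. All 19 NTS2 bins were lower (median log2 −2.82) and so were all 6 promoter bins, in coding 15 were higher and 89 lower, and the right flank held 96 of the higher bins.

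These splits depend on the scaling, because the repeat takes a large and unequal part of the ends. Scaled to TMM factors, Rap1 had 119 higher and 72 lower bins and Abf1 58 and 175, and scaled to 35S coding Abf1 had 194 and 55 and Reb1 64 and 140. With identical fragments counted once Reb1 had 188 higher and 49 lower, and Abf1 79 and 175. TMM moved the median of all bins by 0.11 for Reb1, 0.64 for Rap1 and −0.76 for Abf1 (log2). The order of elements within a library, given above, does not involve this scaling.

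Against free MNase at 30 s, which has 1 library, Reb1 called 97 bins higher and 80 lower (10.2% and 68.5% of all bins), Rap1 58 and 111 (9.18% and 74.5%) and Abf1 70 and 94 (17.3% and 57.2%). The spread of that lone library is taken from the factor libraries. The median log2 difference of the rDNA bins was 0.15 for Reb1, −0.16 for Rap1 and −0.31 for Abf1, against −1.73, −2.22 and −1.26 over all bins, and with TMM scaling the splits were 240 and 29, 238 and 19, and 138 and 52. The bin of the Rap1 motif in the other 25S copy, from 463601, had 12080, 16310 and 16610 ppm in Rap1 libraries and 646.9 ppm in free MNase, a log2 difference of 4.52 (SE 0.40).

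The right flank holds no 35S sequence, and its relative end densities were 0.0026 to 0.0163 in the factor libraries at 30 s. Relative to coding Abf1 was highest on average, and the factors differed with adjusted p = 0.0214 (exact permutation test), which was 0.0536 without Abf1 replicate 1 and 0.0643 without Abf1 replicate 2 or 3. As a share of nuclear ends Abf1 (2885, 2712 and 2575 ppm) and Reb1 (2865, 2071 and 2231 ppm) overlapped, Rap1 had 1580, 1332 and 1445 ppm and free MNase 2391 ppm. The largest Abf1 differences were in the ASP3 copies, which encode cell-wall asparaginase. The bin from 486701 near ASP3-4, which holds an Abf1 motif, had 157.4, 111.2 and 121.5 ppm in Abf1 libraries and 5.13 ppm in free MNase, a log2 difference of 4.62 (SE 0.40). Bins near ASP3-2, from 473401, and ASP3-1, from 469801, had log2 differences of 4.01 and 3.73, and the ASP3 copies share sequence. For Reb1 the largest difference of the flank was in the bin from 489501 near YLR162W, which holds the Reb1 motif, with 664.5, 191.4 and 184.2 ppm in Reb1 libraries and 8.98 ppm in free MNase, a log2 difference of 4.97 (SE 0.48). The high Reb1 library there is of another run than the other 2. Bins in the Ty element YLR157C-B were lower with all 3 factors, from −6.18 in Reb1 and −6.36 in Rap1 to −4.65 in Abf1, and Ty sequence is repeated elsewhere in the genome.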

How the data were processed

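The deposited files hold mapped fragments (chromosome, first and last base, no normalization, unit other), which the authors obtained from permeabilized cells of each strain by adding calcium, selecting small DNA, sequencing pairs for 25 cycles and mapping with Novoalign 2.08.03 to sacCer3 (submitters' processing notes). How reads matching several rDNA copies were placed is not given in the sources used here. There are no molecular identifiers, so Wilson intervals (95%) cover counting error only.

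Ends were counted per base and per 100 bp bin with Python 3.11.15, numpy 2.4.6, scipy 1.17.1 and pandas 2.3.3, with sequences and annotation of the sacCer3 reference. The plan assumed a count test. Since the deposited coordinates are not a count table, limma 3.58.1 (voom, R 4.3.3) was fitted to ends per bin over all 9 factor libraries and free MNase at 30 s, scaled to nuclear ends, with at least 10 ends in 3 libraries and Benjamini-Hochberg adjusted p at or under 0.05. The fit was tested on simulated data, in which a small set of bins was raised and all others had equal means in every group. Against free MNase it recovered 0% of 2-fold and 2 to 4% of 4-fold increases, so its power there was low in that setting. Against the other factors it recovered 2.02 to 5% of 2-fold and 86 to 88% of 4-fold increases. At most 0.0094% of unchanged bins were called. In the data, unlike the simulation, the median bin differed from free MNase by log2 −1.26 (Abf1), −2.22 (Rap1) and −1.73 (Reb1). The simulated rates therefore need not hold for the data. Elements, windows and sides were compared by exact permutation tests over 9 libraries. Named were, in each comparison, up to 3 bins with the largest and up to 3 with the smallest log2 difference past the threshold, the bin with most ends in each element, and the 5 most cleaved positions of the unit for each factor; the other motif windows, the Abf1 place at the 25S 3′ end and the printed sequences of coding sites were chosen after their values were seen. Alternatives were other scalings, distinct fragments, fragments under 120 bp, a replicate block, the run code as a term and leaving out each library. The members, lists and tests were chosen with earlier results of these data known, and the tests of windows and sides were added after seeing the data.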

Additional observations from a re-analysis of the deposited data

Results flagged for a closer look

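The Abf1 X-ChIP-seq library, in which DNA bound by Abf1 was crosslinked, cut with MNase and immunoprecipitated, enters none of the comparisons above. Its relative end density in the 35S promoter was 2.285, above every free MNase ChEC-seq library, of which the highest had 1.301. Its rDNA share was 14.2% of nuclear ends. It is a single library of another assay and run, no X-ChIP-seq control was analysed here, and the difference was not tested.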

How the results depend on the processing

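Under the alternatives, 158 of the summary values kept their side of the threshold or, for counts, stayed within 1.5 times, 7 counts moved further and 1 call was lost. The totals of bins hide turns in the balance of higher and lower bins under other scalings, which are given with the bins above. The order of rDNA shares had p = 0.05 (exact permutation test) with fragments under 120 bp only, and 3 elements passed, of 3 tested, in the second full unit alone. Against free MNase, the bins called were 293 for Abf1 with the free MNase libraries from 10 to 60 s as one group (164 with the 30 s library), 257 with TMM and 260 with median-ratio factors for Rap1 (169 with nuclear ends) and 269 and 270 for Reb1 (177). Leaving out 1 library at a time, p for the share ranged from 0.00357 to 0.0107 and for length from 0.0679 to 0.468, 4 to 6 elements, 6 to 6 motif windows and 3 to 4 motif sides passed, and bins called numbered 147 to 188 (Abf1), 157 to 181 (Rap1) and 165 to 184 (Reb1) against free MNase and 224 to 250 (Abf1), 179 to 213 (Rap1) and 174 to 210 (Reb1) against the other factors. Deviations of same-numbered libraries had no common sign over the factor pairs (correlations from −0.076 to 0.223), so the numbers do not pair them. Abf1 and Rap1 shared 1 run for replicate 1 and another for replicates 2 and 3. Their correlations were 0.0506 to 0.223 within a run and −0.148 to −0.0993 between runs. With the replicate block p was 0.0278 for the share and 0.278 for length, 4 elements, 5 windows and 0 sides passed, with adjusted p from 0.0556 to 0.0833 for the sides, and 254 (Abf1), 231 (Rap1) and 218 (Reb1) bins were called against the other factors. With the run code as a term, 3 bins of YLR157C-B lost their call for Abf1 against free MNase (from 476901, 477201 and 477701, with log2 −2.13, −2.12 and −2.61). The median-ratio factors and the 10 to 60 s group were added after seeing the data, and the count tests planned as main and alternative fit were not run. Depth limits mainly the right flank and the 20 s free MNase library.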
